A study of Equus caballus with 3 samples.

Results

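The 40 genes described here encode proteins of DNA replication and of the S phase in which it takes place, and they were listed by name. Rows of these names were found for 38 of them in all 3 count matrices, which hold 29893, 29901 and 29882 genes. *PRIM1* and *UBR7* had no row. A mean of at least 5 CPM, the UMIs of a gene per 1e6 UMIs of all kept cells, over the 3 libraries was reached by 29 of the 40 genes and by 8426 genes in all. The members below this minimum were *SLBP*, *CCNE2*, *DTL*, *CDC45*, *EXO1*, *DSCC1*, *POLA1*, *BRIP1* and *E2F8*, and they are given by their levels but are not among the 29.

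The samples were mesenchymal stromal cells (MSCs) of 1 adult Warmblood mare, grown from 3 sources of the same animal. These were its fat (adipose tissue, AT), its marrow (bone marrow, BM) and its blood (peripheral blood, PB). The cells were passaged 2 times and captured in droplets with 3′ tags. Every transcript counted carries a barcode of its cell and a unique molecular identifier (UMI). Each source is 1 library, so that a difference between sources cannot be told apart from a difference between cultures or libraries, no test was possible, and the 95% intervals below allow for counting error alone. Samples were assigned to sources by title, although another label names peripheral mononuclear cells in each, and no group had a treatment.

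After removal of barcodes outside 2500 to 15000 UMIs or with more than 3% of UMIs on the mitochondrial chromosome, 5403 AT-, 5580 BM- and 5318 PB-derived MSCs remained, with 39980656, 40239295 and 41622445 UMIs and a median of 7291, 6874.5 and 7750 UMIs per cell. The libraries shared 37 to 42 of these barcodes pair by pair. Of all barcodes, AT and PB shared 5788, and 5279 of the 6155 AT barcodes with fewer than 2500 UMIs were barcodes that the PB library kept. All 10 stromal marker genes examined had UMIs in every library, at 20435 CPM in sum in AT, 14560 CPM in BM and 21952 CPM in PB. Of 10 leucocyte markers, 3 in AT, 3 in BM and 6 in PB were at 0, among them *PTPRC* in every library, and their sum was 8.10, 11.5 and 5.33 CPM, mostly *CD68*. The 6 endothelial markers summed to 0.264 to 0.700 CPM. Apart from the upper bound on UMIs, no step to remove doublets was applied here, and whether the authors' multiplet calls remain in the matrices is not stated.

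DNA replication is licensed in G1, when the MCM helicase is loaded on origins, and begins in S phase, when *CDC45* and the GINS complex join the helicase and polymerases follow with their clamp. Most of these genes are transcribed under E2F factors as a cell passes from G1 into S, together with enzymes that make deoxynucleotides and proteins that pack new DNA into chromatin. Their transcripts are therefore used as a mark of cycling cells, and cultured MSCs that still expand hold such cells.

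BM-derived MSCs had the highest level of S-phase transcripts. This ranks transcripts and not proliferation, which these counts do not measure. The members summed to 633 CPM (95% interval 625 to 641, exact Poisson) in AT, 1088 CPM (1078 to 1098) in BM and 572 CPM (565 to 580) in PB, from 25300, 43786 and 23828 UMIs. The level of BM was 1.72 times that of AT (1.69 to 1.75) and 1.90 times that of PB (1.87 to 1.93), and AT was 1.11 times PB (1.09 to 1.13). *PCNA* alone gave 12.2%, 16.2% and 14.0% of the UMIs, and without it the BM sum was still 1.64 times that of AT and 1.85 times that of PB.

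Of the 29 members with the minimum, 27 were highest in BM, as were 59% of all genes with it. A difference of at least 1.5-fold in CPM + 1 was found in 21 members that were lower in AT than in BM (72.4% of the members, against 21.2% of all 8426 genes) and in 0 members that were higher in AT (4.91% of all genes). Between PB and BM, 22 members were lower in PB (75.9%, against 15.9% of all genes) and 0 were higher (4.66% of all genes). *CDC6* was the only 1 of the 29 under 5 CPM in both AT and PB, and without it 20 and 21 of the other 28 members were lower in AT and in PB than in BM. *MCM2* and *CLSPN* were at 5.18 and 5.53 CPM in AT and at 3.65 and 3.96 CPM in PB. They too reached the mean of 5 CPM only with BM, and they are still among these 20 and 21. PB and AT lay closer together, with 4 members lower in PB (13.8%, against 7.65% of all genes) and 0 higher (11.1% of all genes). The median member differed by -0.88 in log2(CPM + 1) between AT and BM, by -0.99 between PB and BM and by -0.20 between PB and AT, where the median of all genes was at -0.24, -0.20 and 0.03. With TMM factors, which bring the median of all genes to 0.03, 0.02 and -0.01, the median member stood at -0.61, -0.76 and -0.24, and 15 of 29 members were lower (11% of all genes) and 1, *RFC2*, was higher (10.4% of all genes) in AT than in BM by that fold.

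**Figure D1:**
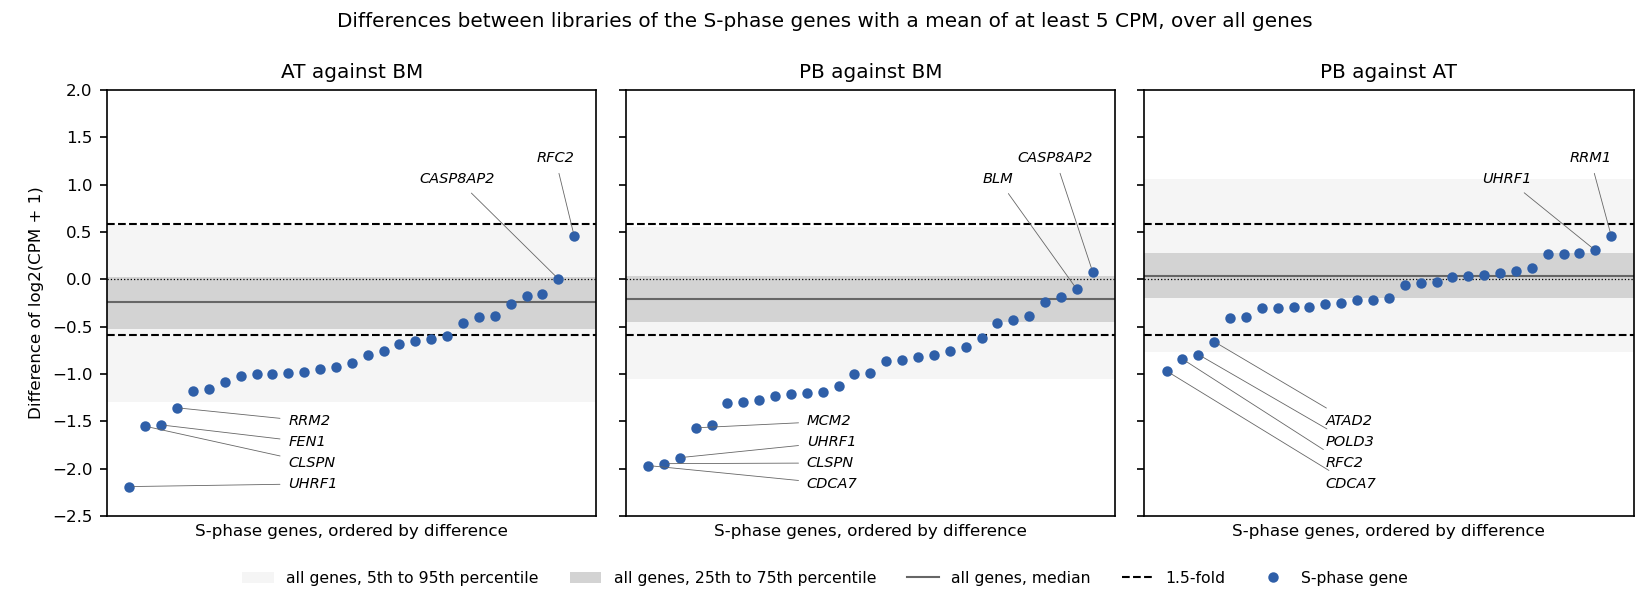
Differences of log2(CPM + 1) between libraries for the 29 S-phase genes with a mean of at least 5 CPM (points, ordered by value), with the 4 lowest and the pair of highest named in each comparison. Light and dark bands span the 5th to 95th and the 25th to 75th percentile of all 8426 genes, the line is their median, and dashed lines mark 1.5-fold. Against BM most points lie below the dark band, and between PB and AT they lie on both sides of 0.

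Among the 37 members with any UMI, 35 were highest in BM, against 51% of all 19625 genes with any UMI. With no minimum, 26 of the 37 were lower by 1.5-fold in AT than in BM (14% of all genes) and 29 in PB than in BM (10.9% of all genes). A pseudocount of 25 CPM in place of 1 left 5 and 7 of the 29 lower by that fold, against 6.34% and 4.63% of all genes.

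Counting error was small against most of these differences. The 95% interval of the ratio left out 1 for 28 of the 29 members between AT and BM (79.6% of all genes), for 27 between PB and BM (77.4% of all genes) and for 19 between PB and AT (70.7% of all genes). The order was BM, AT, PB for 17 members and BM, PB, AT for 10. For the 10 members whose interval between PB and AT held 1, the order of these neighbours was not resolved at this depth. Because 3′ UMI counts of different genes depend on how each transcript is annotated and primed, levels are compared only between libraries and never between genes.

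Of the proteins that license origins and form the helicase, 7 members had the minimum, *CDC6* and *MCM2* among them. All 7 were lower by at least 1.5-fold in AT and in PB than in BM (21.2% and 15.9% of all genes). The 8 members summed to 139 CPM (135 to 142) in AT, 247 CPM (242 to 251) in BM and 122 CPM (119 to 126) in PB. Of the helicase itself, 4 MCM subunits are members. *MCM5* was at 21.9 CPM in AT, 43.1 CPM in BM and 18.1 CPM in PB, and *MCM6* at 41.5, 67.1 and 33.3 CPM. *MCM4* was at 12.7, 26.6 and 10.2 CPM, and *MCM2* at 5.18, 12.8 and 3.65 CPM. All 4 subunits had the order BM, AT, PB, with BM 1.84 times AT in sum (1.77 to 1.92) and 2.29 times PB (2.19 to 2.40), and each was lower in PB than in AT beyond its interval. The largest of these ratios was that of *MCM2*, for which BM was 3.50 times PB (2.92 to 4.23).

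*GINS2*, a subunit of the GINS complex, was at 10.6 CPM in AT, 18.6 CPM in BM and 10.3 CPM in PB. *GMNN*, which encodes geminin, the inhibitor of relicensing, was at 40.7, 64.4 and 41.6 CPM. Both were higher in BM, whereas the ratio of PB to AT was 0.970 (0.846 to 1.11) for *GINS2* and 1.02 (0.955 to 1.09) for *GMNN*, so that AT and PB were not told apart. *CDC6*, a loader of the helicase, was at 3.85, 8.67 and 3.22 CPM, and *CDC45*, which joins the helicase at its activation, at 2.25, 5.27 and 1.90 CPM. For both, BM was more than 2-fold above each of the other sources, and PB and AT overlapped in their intervals.

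**Figure D2:**
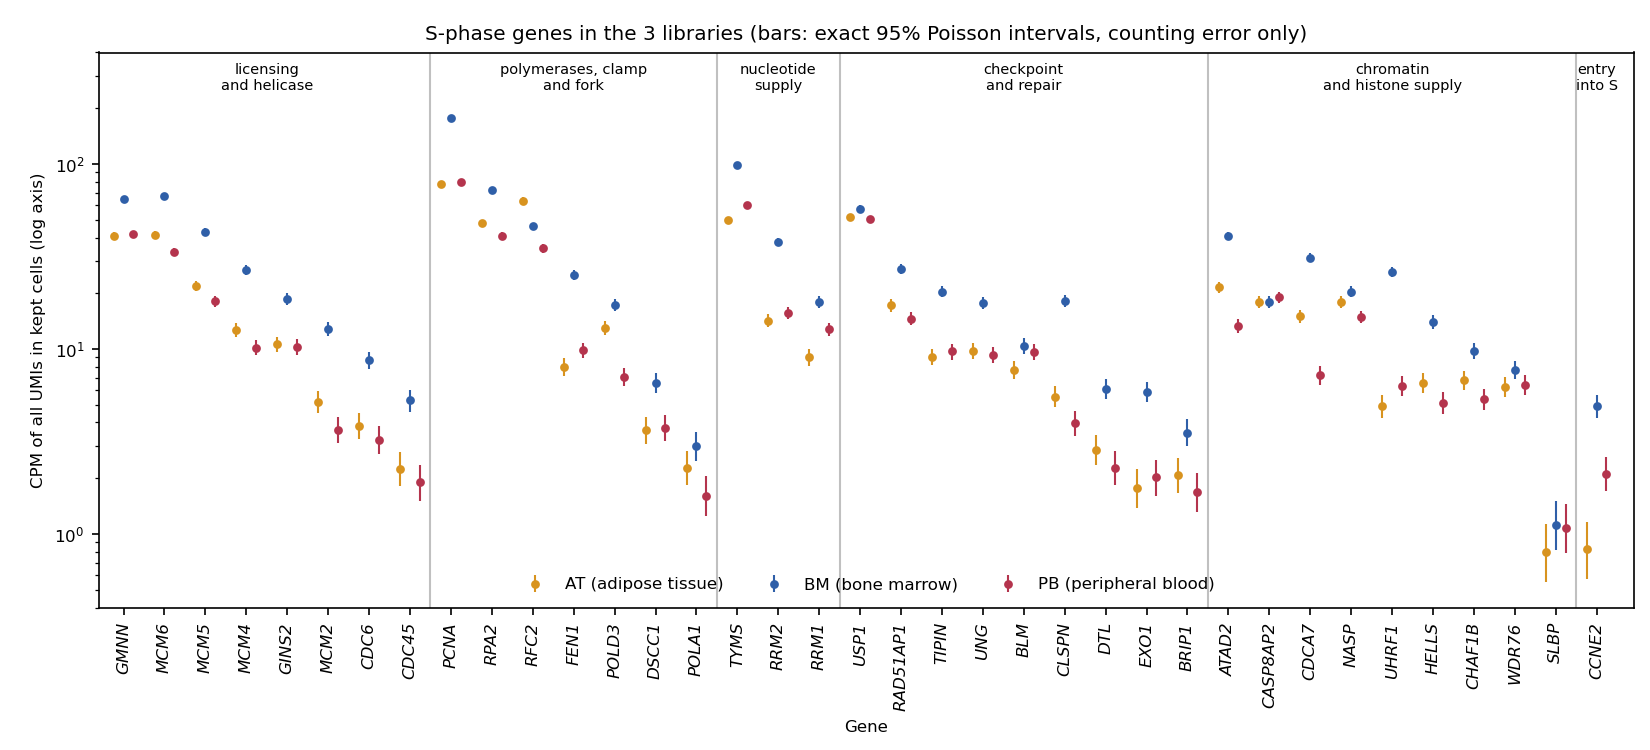
CPM of each S-phase gene with any UMI (horizontal axis, grouped by role) in the AT, BM and PB libraries, on a log axis, with exact 95% Poisson intervals that cover counting error only. The BM point is the highest for 35 of the 37 genes, and *RFC2* and *CASP8AP2* are the exceptions.

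The genes of polymerases, the clamp and the fork summed to 215 CPM in AT (211 to 220), 347 CPM in BM (341 to 353) and 178 CPM in PB (174 to 182). *PCNA*, the sliding clamp that tethers polymerases to DNA, was at 77.5 CPM (74.8 to 80.2) in AT, 177 CPM (173 to 181) in BM and 80.1 CPM (77.4 to 82.9) in PB. A *PCNA* UMI was found in 33.4% of AT cells, 47.0% of BM cells and 36.0% of PB cells, and in 14.9%, 26.0% and 15.8% when every cell was thinned to 2500 UMIs. BM stood apart from both other sources, whose CPM did not differ beyond counting error (ratio of PB to AT 1.03, 0.984 to 1.09). Their shares of cells before thinning did, with intervals of 32.13 to 34.66% in AT and 34.72 to 37.32% in PB. PB cells were deeper, with a median of 7750 UMIs against 7291 UMIs in AT. For the shares at equal depth, 14.9% and 15.8%, no intervals are given, so a difference there is not shown. No cell type that should lack these transcripts was identified in the cultures, so the background share from free RNA is not known.

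*FEN1*, the flap endonuclease that trims Okazaki fragments, was at 7.98 CPM in AT, 25.1 CPM in BM and 9.80 CPM in PB. BM was 3.14 times AT (2.77 to 3.58) and 2.56 times PB (2.28 to 2.88). *RPA2*, a subunit of the protein that coats single-stranded DNA, was at 47.6, 72.7 and 40.9 CPM. *POLD3*, an accessory subunit of polymerase delta, was at 13.0 CPM in AT, 17.4 CPM in BM and 7.06 CPM in PB, and was the only member of this role other than *RFC2* to lie at least 1.5-fold lower in PB than in AT (ratio 0.544, 0.470 to 0.629). *DSCC1*, part of an alternative clamp loader, was at 3.63, 6.56 and 3.75 CPM, and *POLA1*, the catalytic subunit of polymerase alpha, at 2.28, 2.98 and 1.61 CPM. Both lay under the minimum, and the interval of *POLA1* between BM and AT held 1 (ratio 1.31, 0.989 to 1.74).

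*RFC2* and *CASP8AP2* were the members with the minimum that were not highest in BM, and of these *RFC2* alone had intervals that left out 1 in every pair. This subunit of the clamp loader was at 63.4 CPM (60.9 to 65.9) in AT, 45.9 CPM (43.8 to 48.0) in BM and 34.9 CPM (33.1 to 36.8) in PB. An *RFC2* UMI was found in 32.5% of AT cells, 23.1% of BM cells and 21.2% of PB cells, and in 13.2%, 8.78% and 7.67% after thinning. AT was highest on each of these scales, and its ratio to PB was 1.82 (1.70 to 1.94). With TMM factors, the difference between AT and BM grew from 0.46 to 0.73 in log2(CPM + 1). Other subunits of the clamp loader, from a list of 60 further replication genes and named after their values were seen, did not share this order. *RFC1* was at 44.3, 47.4 and 58.7 CPM and *RFC3* at 13.8, 17.9 and 6.58 CPM. *RFC4* was at 15.3, 27.1 and 11.1 CPM and *RFC5* at 9.53, 15.7 and 6.90 CPM in AT, BM and PB.

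The 3 genes that supply deoxynucleotides were the role with the largest ratio of BM to AT among those with more than 1 gene expressed, at 2.12 (2.03 to 2.22) against 1.75 (1.68 to 1.83) over PB. *TYMS*, thymidylate synthase, was at 49.7 CPM in AT, 98.6 CPM in BM and 59.8 CPM in PB. *RRM2*, the small subunit of ribonucleotide reductase that varies through the cycle, was at 14.2, 38.0 and 15.6 CPM, and *RRM1*, its large subunit, at 9.00, 17.9 and 12.7 CPM. In sum they stood at 72.9, 155 and 88.2 CPM. This role also had the reverse order of AT and PB, with PB 1.21 times AT (1.15 to 1.27), and among the 29 members *RRM1* showed the largest ratio of PB to AT, at 1.41 (1.23 to 1.62), while that of *RRM2* held 1 (1.10, 0.977 to 1.23).

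Among genes of checkpoint and repair, 6 members had the minimum. Of these, 4, *CLSPN* among them, were lower by at least 1.5-fold in AT than in BM (21.2% of all genes). The same 4 were lower in PB than in BM (15.9%). *CLSPN*, the adaptor through which stalled forks activate the kinase *CHEK1*, was at 5.53 CPM in AT, 18.1 CPM in BM and 3.96 CPM in PB, and BM was 3.28 times AT (2.82 to 3.83) and 4.58 times PB (3.86 to 5.45). *TIPIN*, which protects forks with *TIMELESS*, was at 9.05, 20.3 and 9.68 CPM. *UNG*, which removes uracil from DNA, was at 9.75, 17.7 and 9.30 CPM, and *RAD51AP1*, a protein of recombination repair, at 17.2, 27.1 and 14.6 CPM. These 4 genes were higher in BM, while the ratio of PB to AT held 1 for *TIPIN* and *UNG*.

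*USP1*, a deubiquitinase that acts on *PCNA*, and *BLM*, a helicase of recombination, differed less. *USP1* was at 51.4 CPM in AT, 57.4 CPM in BM and 50.3 CPM in PB, and was found in 29.1%, 28.5% and 29.2% of cells. *BLM* was at 7.73, 10.4 and 9.59 CPM. The small excess of BM turned with TMM factors for *USP1*, to 0.12 in log2(CPM + 1) for AT and 0.04 for PB against BM, and for *BLM* between PB and BM, to 0.11. Under the minimum, *DTL*, a substrate receptor of the ligase that removes licensing factors, was at 2.85, 6.09 and 2.28 CPM, the exonuclease gene *EXO1* at 1.78, 5.86 and 2.02 CPM, and *BRIP1*, a helicase that binds BRCA1, at 2.08, 3.53 and 1.68 CPM. All 3 were highest in BM beyond their intervals, and none differed between PB and AT beyond them.

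The members of chromatin and histone supply summed to 97.8 CPM in AT (94.8 to 101), 168 CPM in BM (164 to 172) and 78.5 CPM in PB (75.9 to 81.3). *UHRF1*, which recruits the maintenance methyltransferase to newly replicated DNA, was at 4.90 CPM in AT, 25.9 CPM in BM and 6.29 CPM in PB. Its ratio of BM to AT, 5.29 (4.53 to 6.19), was the largest among the 29 members, and UMIs of it were found in 3.05%, 12.9% and 3.76% of cells. *HELLS*, a remodeller needed for DNA methylation, was at 6.55, 14.0 and 5.12 CPM. *CDCA7*, which works with *HELLS*, was at 15.1, 31.1 and 7.21 CPM, so that PB was lower than AT (ratio 0.479, 0.415 to 0.551) as well as lower than BM. *DNMT1*, the maintenance methyltransferase itself, which is no member and was named after its values were seen, was at 22.7, 35.9 and 14.2 CPM, the same order as *CDCA7* and *HELLS*.

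*ATAD2*, a bromodomain ATPase of chromatin, was at 21.6 CPM in AT, 40.6 CPM in BM and 13.3 CPM in PB, and *CHAF1B*, a subunit of the chromatin assembly factor that deposits histones behind the fork, at 6.78, 9.74 and 5.33 CPM. Between PB and AT, *ATAD2*, *CDCA7*, *POLD3* and *RFC2* were the 4 members past 1.5-fold. *NASP*, a histone chaperone, was at 17.9, 20.3 and 14.9 CPM, and *WDR76*, a WD-repeat protein of chromatin, at 6.23, 7.68 and 6.37 CPM. Both stayed within 1.5-fold in every comparison, and with TMM factors *NASP* was higher in AT than in BM by 0.09 in log2(CPM + 1). *CASP8AP2*, which takes part in the processing of histone transcripts, was at 18.0 CPM in AT, 17.9 CPM in BM and 19.0 CPM in PB, and none of its ratios between sources differed from 1 beyond the interval. *SLBP*, which binds the stem-loop of histone transcripts, was under the minimum at 0.800, 1.12 and 1.08 CPM from 32, 45 and 45 UMIs, and its order was not resolved at this depth.

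Of the genes that govern entry into S phase, *CCNE2*, a cyclin of the kinase that starts replication, was under the minimum at 0.825 CPM in AT, 4.90 CPM in BM and 2.11 CPM in PB, from 33, 197 and 88 UMIs. BM was 5.93 times AT (4.09 to 8.86), and PB was 2.56 times AT (1.70 to 3.95). *E2F8*, a repressor of the E2F family, had 0 UMIs in all 3 libraries, where 3 UMIs would correspond to 0.0750, 0.0746 and 0.0721 CPM. Its row lies on an unplaced scaffold of EquCab 3.0.

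The other genes of the replication machinery were taken from a list of 60 symbols, of which 57 had a row and 35 reached the minimum. Of these, 22 were lower by at least 1.5-fold in AT than in BM, 27 were lower in PB than in BM and 5 were lower in PB than in AT, against 21.2%, 15.9% and 7.65% of all genes, with 0 higher in each comparison. Their median differences in log2(CPM + 1) were -0.66, -0.94 and -0.17, and their sum was 646 CPM in AT, 1036 CPM in BM and 589 CPM in PB. Of the 35, *GINS4*, *POLA2*, *TIMELESS*, *ATAD5*, *ASF1B* and *CCNE1* were under 5 CPM in both AT and PB. These genes reached the minimum only with BM, and all are among the 22 and the 27 lower than in BM. The largest differences between AT and BM were those of *CHAF1A*, the large subunit of the chromatin assembly factor, *FBXO5*, an inhibitor of the anaphase-promoting complex, and *MCM3*, a helicase subunit. *CHAF1A* was at 4.85, 18.0 and 5.17 CPM, *FBXO5* at 5.53, 18.3 and 4.54 CPM, and *MCM3* at 7.88, 25.2 and 8.67 CPM in AT, BM and PB. *ASF1B*, a histone chaperone, was with *FBXO5* and *CHAF1A* the most different between PB and BM, at 3.29 against 12.6 CPM. Between PB and AT the largest differences were those of *RFC3*, of *POLD2*, an accessory subunit of polymerase delta at 16.6 CPM in AT, 13.1 CPM in BM and 9.63 CPM in PB, and of *TIMELESS* at 4.35, 8.57 and 2.31 CPM.

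How the transcripts were spread over cells was examined after every kept cell had been thinned to 2500 UMIs, so that depth was equal. The mean number of S-phase UMIs per cell was 1.51 in AT, 2.37 in BM and 1.33 in PB, whereas the median cell had 1 in each library. The 95th percentile was 9 UMIs for BM and 5 for both AT and PB. Cells without any S-phase UMI made up 34.4% (33.1 to 35.7%, exact Clopper-Pearson) in AT, 29.1% (27.9 to 30.3%) in BM and 37.4% (36.1 to 38.7%) in PB, and 10 or more were found in 1.28%, 4.55% and 0.997% of cells.

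**Figure D3:**
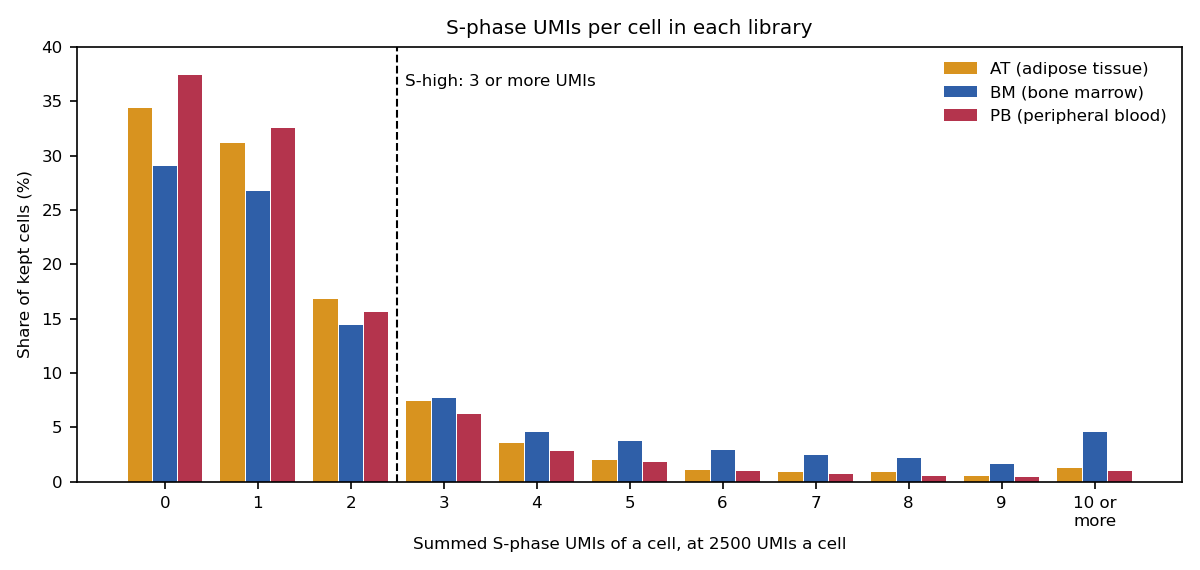
Share of kept cells (percent) by the number of UMIs of the 38 S-phase genes in a cell thinned to 2500 UMIs, for AT, BM and PB. From 3 UMIs upward every BM bar is the highest, and 10 or more UMIs are found in 4.55% of BM-derived MSCs against 1.28% and 0.997%.

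Cells with 3 or more of these UMIs, the smallest number reached by at most 25% of cells averaged over the sources, are called S-high. Their share was 17.6% (16.6 to 18.6%) for AT, 29.7% (28.5 to 30.9%) for BM and 14.5% (13.5 to 15.5%) for PB, which is 951, 1658 and 770 cells. S-high is a range of a count and not a cell type, since 400, 429 and 331 cells lay at 3 UMIs and 907, 805 and 829 cells lay 1 UMI below. With a threshold of 5 UMIs, reached by at most 10% of cells, the shares were 6.66%, 17.5% and 5.47%. S-high cells of BM carried more S-phase UMIs on average, 6.11 against 4.89 in AT and 4.76 in PB. Outside of them, where the definition allows at most 2, the mean was 0.786 in AT, 0.791 in BM and 0.745 in PB. Of all thinned S-phase UMIs, 76.5% lay in S-high cells for BM, against 57.0% for AT and 52.0% for PB.

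The members were found together in cells. When they were divided in alphabetical order into alternate lists of 19 genes, cells with 2 or more UMIs of 1 list had 2.95 to 3.19 times the UMIs of the other list in AT, 4.04 to 4.18 times in BM and 3.03 to 3.09 times in PB, relative to the remaining cells. Across cells, Pearson's r between both lists was 0.45 in AT (n = 5403), 0.59 in BM (n = 5580) and 0.41 in PB (n = 5318), as a description of cells that share a library and a depth of 2500 UMIs.

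A list of G2/M genes, of mitosis and its preparation, was used to separate later cells of the cycle. Of 52 such genes found, 45 reached the minimum, and 27, 38 and 6 of them were lower by at least 1.5-fold in AT than in BM, in PB than in BM and in PB than in AT, against 21.2%, 15.9% and 7.65% of all genes, with 0 higher. Of the 45, *AURKB*, *TTK* and *KIF2C* were under 5 CPM in both AT and PB. These genes reached the minimum only with BM, and all are among the 27 and the 38 lower than in BM. Cells with 8 or more UMIs of the 52 genes after thinning are called G2/M-high, and they amounted to 18.7%, 27.2% and 12.6% of the AT, BM and PB cells. *TMPO* alone gave 1209 of the 2601 CPM of this list in AT, 1029 of 3359 CPM in BM and 937 of 2215 CPM in PB. It was higher in AT than in BM by 0.23 in log2(CPM + 1), and its effect on these shares was not tested. Cells that were S-high only were 9.83%, 12.1% and 8.07%, cells that were both were 7.77%, 17.6% and 6.41%, and cells that were G2/M-high only were 10.9%, 9.61% and 6.22%. Among these 3 classes, BM differed most from AT and PB in cells that were both. Cells that were neither were 71.5%, 60.7% and 79.3%. *TMPO* was not raised in cells S-high only, which differed from cells that were neither by -0.21, -0.27 and -0.11 in log2(CPM + 1) in AT, BM and PB. Of the G2/M-high cells, 41.5% (38.5 to 44.7%) in AT, 64.7% (62.2 to 67.1%) in BM and 50.7% (46.9 to 54.6%) in PB were also S-high. Cells that were both had the most UMIs, with a median of 8344.5 in AT, 8845.5 in BM and 9833 in PB, against 7207, 6428.5 and 7589 in cells that were neither, and the part of doublets in them was not tested. Without the 5% of kept cells with the most UMIs in each library, S-high cells were 28.3% in BM and 13.5% in PB.

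The members were also summed within classes, each in cells whose S-high class was set from the list of 19 genes that did not hold it. Because the lists were found together in cells, the classes still limit these sums, which are given as a description. In cells that were neither, the S-phase sum was 410 CPM in AT, 443 CPM in BM and 376 CPM in PB. In cells S-high only it was 1007, 1489 and 817 CPM, in cells that were both 2067, 2807 and 2154 CPM, and in cells G2/M-high only 755, 1064 and 872 CPM. BM had the highest sum in every class, AT was above PB in cells that were neither and in cells S-high only, and PB was above AT in cells G2/M-high only. In cells that were both, the intervals of AT (2015 to 2119) and PB (2100 to 2209) overlapped. When only cells that were not G2/M-high were kept, the log2 ratio of AT to BM moved from -0.78 to -0.36 and that of PB to BM from -0.93 to -0.56, and 9 of the 25 members with the minimum were lower by 1.5-fold in AT (20.3% of all genes), with 1 higher (5.58% of all genes), and 13 of 25 in PB (14.2% of all genes).

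**Figure D4:**
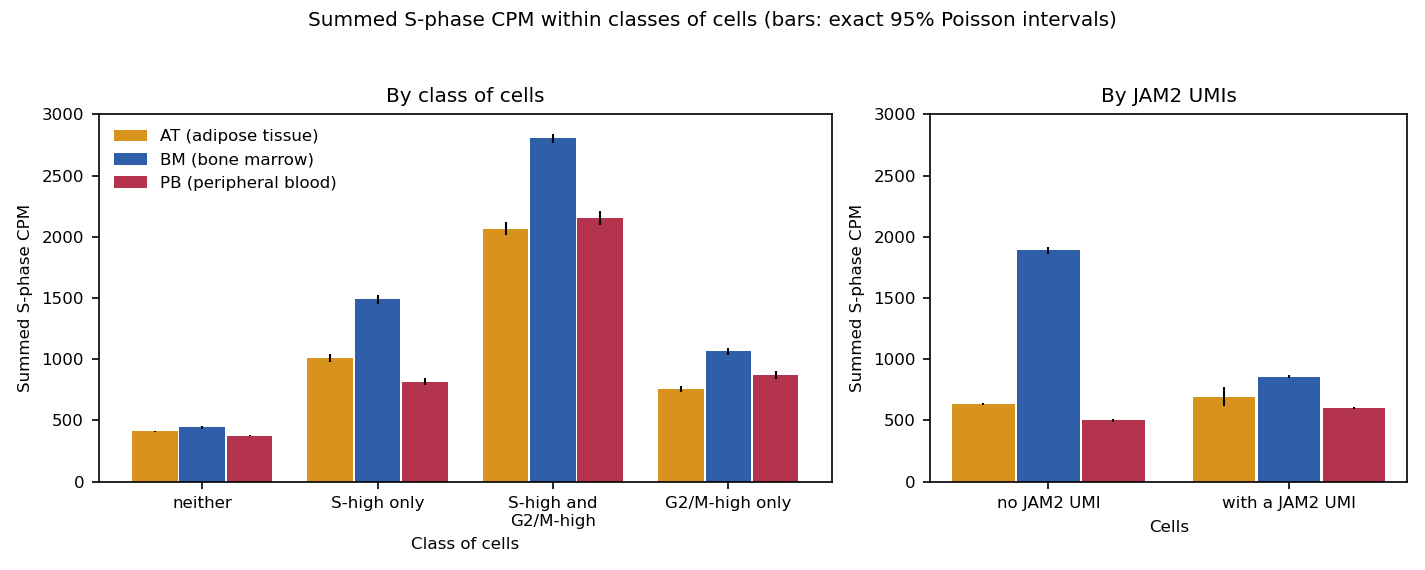
Summed CPM of the S-phase genes in cells grouped by class (left) and by whether a *JAM2* UMI was counted (right), for AT, BM and PB, with exact 95% Poisson intervals. Sums range from 376 to 443 CPM in cells that are neither and from 2067 to 2807 CPM in cells that are both, and BM-derived MSCs without a *JAM2* UMI reach 1891 CPM.

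The same classes gave each member's level in cells that it had not helped to choose. These cells were chosen by other S-phase genes, which were found together with it in cells. Higher levels of most members there follow in part from that choice, and the counts below are a description and no test. In cells S-high only, 26 of 29 members in AT (4.84% of all genes), 29 of 29 in BM (6.06% of all genes) and 25 of 29 in PB (3.48% of all genes) were at least 1.5-fold higher than in cells that were neither, and 25 were so in all 3 libraries. *CLSPN*, *HELLS* and *UHRF1* showed the largest differences in BM, of 3.27, 3.15 and 3.06 in log2(CPM + 1), and in AT *UHRF1* and *CLSPN* differed by 3.21 and 3.12. In AT, *UHRF1* was at 0.834 CPM in cells that were neither and at 16.0 CPM in cells S-high only, and in BM at 4.37 and 43.8 CPM. At the other end, *CASP8AP2* differed by 0.29 in AT, 0.64 in BM and 0.32 in PB, *USP1* by 0.39, 1.10 and 0.40, and *WDR76* by 0.55, 1.17 and 0.43. *CASP8AP2*, *USP1* and *WDR76* were the 3 members that varied least between these cells in AT and PB. Like them, *BLM* and *NASP* stayed within 1.5-fold between all sources, but they differed between these cells by 1.17, 1.92 and 0.83 for *BLM* and by 0.74, 1.15 and 0.89 for *NASP*.

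The members were also compared between cells G2/M-high only and cells S-high only. *TYMS*, *RRM2*, *RFC2* and *RAD51AP1*, which are 13.8% of the 29, were higher in the former in all 3 libraries, a smaller share than the 19.8% of all genes. They were higher by 0.00 to 0.20 in log2(CPM + 1) in AT, 0.07 to 0.46 in BM and 0.39 to 0.75 in PB, and none of the 4 was past 1.5-fold in all 3 libraries. *RRM2* was at 3.62 CPM in cells of AT that were neither, 21.1 CPM in cells S-high only, 21.3 CPM in cells G2/M-high only and 87.3 CPM in cells that were both. In BM it was at 7.71, 32.4, 45.1 and 122 CPM, and in PB at 4.37, 20.3, 34.8 and 104 CPM, in the same order of classes. Cells with both lists high thus had the most *RRM2* in each library. Their level was above that of cells S-high only in all 3 libraries for 26 of the 29 members (34.9% of all genes).

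*MCM2*, *UNG*, *CDCA7* and *HELLS* were instead at least 1.5-fold lower in cells G2/M-high only than in cells S-high only in all 3 libraries (0.0949% of all genes). In PB, *MCM2* rested on 13 UMIs in the former and 32 in the latter, at -0.62, and *UNG* on 36 and 50. Both lay close to the limit of 1.5-fold, and no intervals are given for these differences. *UNG* was at 7.66 CPM in cells of AT that were neither, 26.0 CPM in cells S-high only and 5.71 CPM in cells G2/M-high only, and in BM at 8.03, 39.8 and 13.0 CPM. *HELLS* was at 2.45, 18.6 and 4.53 CPM in AT and at 2.47, 29.7 and 10.7 CPM in BM. Differences between both classes in log2(CPM + 1) were -2.01, -1.55 and -0.61 for *UNG* and -1.82, -1.40 and -0.98 for *HELLS* in AT, BM and PB. In all, 17 of 29 members were lower in cells G2/M-high only than in cells S-high only in every library (17% of all genes). Higher in cells S-high only than in cells G2/M-high only were 22 of 29 members in AT (49.8% of all genes), 24 in BM (49.7% of all genes) and 17 in PB (46.2% of all genes).

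**Figure D5:**
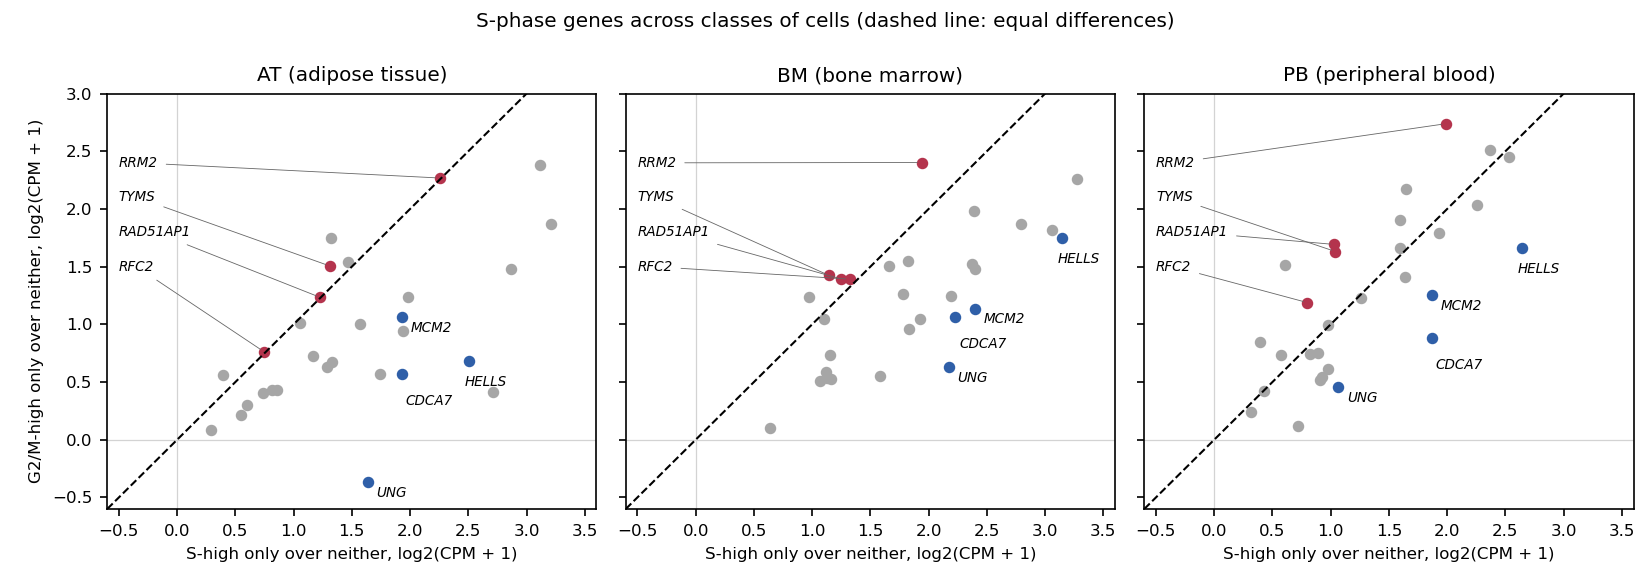
For each library, the difference in log2(CPM + 1) of 29 S-phase genes between cells S-high only and cells that were neither (horizontal axis) and between cells G2/M-high only and cells that were neither (vertical axis). Red marks the 4 genes above the line of equal differences in all 3 libraries and blue the 4 genes at least 1.5-fold lower in cells G2/M-high only in all 3, and most grey points lie below the line in AT and BM.

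Members were also compared between sources within these classes of cells. Because both lists were found together in cells, the classes limit these differences too, which are given as a description. Some members were also low in cells that were neither, such as *MCM2* at 2.10, 3.43 and 1.34 CPM in AT, BM and PB. At such levels the pseudocount of 1 CPM lowers differences. In cells that were neither, 6 of 29 members (20.7%) were lower by 1.5-fold in AT than in BM, close to the 20.6% of all genes, and 9 (31.0%) were lower in PB than in BM, against 13.7% of all genes. *RFC2* was higher in AT (5.83% of all genes) and *BLM* in PB (4.83% of all genes). Between PB and AT, 4 were lower in PB (7.88% of all genes). In cells S-high only, 14 (48.3%) were lower in AT and 20 (69.0%) in PB than in BM, against 21.5% and 19.6% of all genes, and 0 were higher (6.16% of all genes for each source). There 9 members (31.0%) were lower in PB than in AT (11.1% of all genes), more than the 4 over all cells. The median difference from BM in log2(CPM + 1) was -0.25 for AT and -0.38 for PB in cells that were neither, and -0.57 and -0.92 in cells S-high only. *UHRF1* and *CLSPN* differed in both classes, *UHRF1* by -1.55 and -1.40 between AT and BM and *CLSPN* by -1.05 and -1.21. *RFC2*, by contrast, was higher in AT than in BM by 1.13 in cells that were neither and by 0.55 in cells S-high only, the former at 48.5 against 21.6 CPM.

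S-phase transcripts of BM were unevenly spread with respect to *JAM2*, which encodes a junctional adhesion molecule and was chosen after its values were seen. The 1196 BM-derived MSCs without a *JAM2* UMI had 1891 CPM of S-phase transcripts (1862 to 1919), and the 4384 with a *JAM2* UMI had 858 CPM (847 to 868). S-high cells were 52.0% (49.1 to 54.9%) of the former and 23.6% (22.4 to 24.9%) of the latter. Their median depth was 7359 and 6799 UMIs. When *JAM2* was read after thinning, the sums were 1446 and 799 CPM and the S-high shares 39.8% and 22.4%. In PB the order was reversed, with 503 CPM in 1903 cells without and 605 CPM in 3415 cells with a *JAM2* UMI, and S-high shares of 12.2% and 15.8%, at a median depth of 7015 and 8133 UMIs. After thinning, the PB sums were 549 CPM (541 to 558) and 621 CPM (608 to 635), and the S-high shares of 14.0% (12.9 to 15.2%) and 15.4% (13.7 to 17.2%) overlapped in their intervals. In AT, 57 cells had a *JAM2* UMI, at 691 CPM (615 to 775) against 632 CPM in the rest. Without the BM cells that lacked a *JAM2* UMI, the log2 ratio of AT to BM was -0.44 and that of PB to BM -0.58, BM had 23.6% S-high cells, and of 28 members with the minimum, 10 were lower by 1.5-fold in AT than in BM (19.4% of all genes) and 17 in PB than in BM (13.9% of all genes).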

How the data were processed

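Single-cell RNA sequencing of AT-, BM- and PB-derived MSCs of 1 mare was analysed from the counts that the authors deposited, which are whole numbers of UMIs for every gene in every barcode and are not normalized. Before deposit, the authors assigned reads to barcodes with Cell Ranger, mapped them to EquCab 3.0 and counted UMIs with ESAT, which includes reads just downstream of a gene. They left out exons that overlap on opposite strands, which can lower counts of genes affected, and counted duplicated features in a second run. Chromosomes are those of the deposited matrices.

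Barcodes were kept when they held between 2500 and 15000 UMIs, of which 3% or less were mitochondrial, after the filters in the paper's methods. The multiplet caller named there was not run, and whether its calls remain in the matrices is not stated. Levels are CPM of summed UMIs, and differences are those of log2(CPM + 1) among genes with a mean of at least 5 CPM, marked past 1.5-fold. Sums carry exact Poisson, ratios conditional binomial and shares Clopper-Pearson 95% intervals (Python 3.11.15, NumPy 2.4.6, SciPy 1.17.1), and shares per cell were taken after thinning to 2500 UMIs. TMM factors of 0.928, 1.13 and 0.957 for AT, BM and PB came from edgeR 4.0.16 in R 4.3.3, used for nothing else. On simulated counts of AT against BM with 100 genes raised and 100 lowered 3-fold among 8426, the steps recovered 100 and 100, and 0 of 8226 unchanged genes passed 1.5-fold. These were Poisson counts from the same profile, without variation between libraries or cells. They check the computation alone and give no rate of false calls in the data.

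Every member is named. Of 60 other replication genes, the 3 with the largest difference in each pair of sources are named. Of further genes with at least 20 CPM in the S-high cells of every library, the 10 with the largest lowest ratio between cells S-high only and cells that were neither are named. Lists of 52 G2/M genes, histone genes and stromal, leucocyte and endothelial markers were also used. Members, lists and rules were chosen with earlier results of these data known. The alternatives were other limits on UMIs and mitochondrial share, removal of cells with many UMIs or shared barcodes, TMM factors, other pseudocounts and minima, means over cells, thinning, another seed or threshold, removal of the 3 members with most UMIs, and cells not G2/M-high. Removal of BM cells without a *JAM2* UMI or with an *IGFBP5* UMI was added after seeing the data. Promoter and protein sequences of the members were not analysed here.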

Additional observations from a re-analysis of the deposited data

Results flagged for a closer look

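Barcodes below 2500 UMIs, which entered none of the comparisons apart from the alternative with at least 500 UMIs, also held S-phase transcripts above the level that a count of 0 allows. Their sum was 595 CPM (575 to 615) in 6155 barcodes of AT, 624 CPM (568 to 685) in 526 barcodes of BM and 465 CPM (413 to 521) in 554 barcodes of PB. The intervals of AT and BM overlapped, and PB lay below both. Of the AT barcodes, 5279 (85.8%) were barcodes that the PB library kept, at 576 CPM (553 to 598), and the other 876 were at 671 CPM (624 to 722).

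The relation of S-phase transcripts to *JAM2* UMIs took opposite directions in BM and PB. The log2 ratio of their summed CPM in cells with a *JAM2* UMI over cells without was -1.14 in BM and 0.27 in PB. This difference between sources was not tested, since each is 1 library.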

How the results depend on the processing

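Under the 18 alternatives, each of which applied to some results, BM kept the highest S-phase sum and the highest share of S-high cells, and neither their differences between sources nor those of members past 1.5-fold reversed. Of the 29 members, TMM factors turned the sign of 2 in each pair, all under 1.5-fold, which were *USP1* and *NASP* between AT and BM, *USP1* and *BLM* between PB and BM, and *GMNN* and *WDR76* between PB and AT. The log2 ratio of AT to BM ranged from -0.83 to -0.36, that of PB to BM from -0.96 to -0.56 and that of PB to AT from -0.23 to -0.071. Values outside the counting intervals follow, in the order AT to BM, PB to BM and PB to AT. They were -0.83, -0.90 and -0.071 with no upper UMI limit, -0.74, -0.96 and -0.22 without the 5% of cells with the most UMIs, -0.50, -0.69 and -0.19 with TMM factors, -0.68, -0.87 and -0.19 as means of single-cell CPM, -0.65, -0.84 and -0.18 in thinned cells, and -0.36, -0.56 and -0.20 in cells not G2/M-high. Without the 3 members with the most UMIs they were -0.69 for AT to BM and -0.23 for PB to AT. Of the alternatives chosen after seeing the data, leaving out BM cells without a *JAM2* UMI gave -0.44 and -0.58, and leaving out those with an *IGFBP5* UMI gave -0.62 and -0.76, for AT and PB to BM.

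Shares of S-high cells in AT, BM and PB were 6.66%, 17.5% and 5.47% at the 10% threshold, 10.5%, 24.1% and 7.97% without thinning, and 11.8%, 21.8% and 8.72% without the 3 members. In BM the share was 28.3% without the cells with the most UMIs (13.5% in PB), 23.6% without cells lacking a *JAM2* UMI and 26.7% without cells with an *IGFBP5* UMI. The 21, 22 and 4 members past 1.5-fold became 5, 7 and 0 with a pseudocount of 25 CPM (8.45%, 6.44% and 6.54% of all genes), and 8, 8 and 2, of 10 members, at a minimum of 20 CPM (24.6%, 18.7% and 17.2% of all genes). In cells not G2/M-high, 10 of 25 members passed between AT and BM, 9 of them lower in AT (20.3% of all genes lower and 5.58% higher). There 13 of 25 were lower in PB than in BM (14.2% of all genes). Without BM cells lacking a *JAM2* UMI, 11 of 28 passed between AT and BM, 10 of them lower in AT (19.4% of all genes). A larger pseudocount lowers differences of low genes by construction and a higher minimum tests fewer genes, and for the other settings the cause was not tested. The 47 differences of single members past 1.5-fold were recomputed 605 times in all, of which 605 had the same sign and 93 fell under 1.5-fold. Members with few UMIs, such as *SLBP* and *POLA1*, were limited by depth. All barcodes with at least 500 UMIs could not be used for S-high shares, which need 2500 UMIs, and the planned search of promoters and proteins was not run. No paired analysis was possible because each source had 1 library.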

Other observations

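Genes outside the lists were compared between cells S-high only and cells that were neither. Only the 3710 such genes with at least 20 CPM in the S-high cells of every library entered, a minimum that favours genes high in those cells. Of these, the 10 with the largest difference in the library where it was lowest were *MIS18A*, *TEX30*, *CENPM*, *NCAPG2*, *SPC25*, *MTFR2*, *FABP5*, *BARD1*, *CENPK* and *MYBL2*. *MIS18A*, needed to renew the histone of centromeres, was at 0.962 CPM in cells of AT that were neither and 9.65 CPM in cells S-high only, at 1.37 and 12.5 CPM in BM, and at 1.09 and 10.5 CPM in PB. *CENPM* and *CENPK* encode centromere proteins, *SPC25* a kinetochore subunit, *NCAPG2* a condensin subunit and *BARD1* the partner of BRCA1. *MYBL2*, a transcription factor of cycling cells, was at 14.5 CPM over all cells of AT, 34.3 CPM of BM and 12.4 CPM of PB. *FABP5*, a fatty acid-binding protein, was at 28.7, 79.0 and 20.1 CPM. All 10 were highest in BM over all cells, as were 58.2% of the 3710 genes.

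Histone proteins are made mostly in S phase. The 12 histone genes found summed to 61.2 CPM in AT, 85.5 CPM in BM and 55.7 CPM in PB, and 4 reached the minimum. Others were near 0, such as *HIST1H2BJ* with 5, 9 and 9 UMIs and *HIST2H2BF* with 2, 8 and 4 UMIs in AT, BM and PB. How fully the histone transcripts of S phase are captured with 3′ tags was not tested, so their levels may not follow S phase here. Without *HIST1H1C* the sums were 52.1, 51.6 and 37.5 CPM. Of the 4, 1 was lower by 1.5-fold in AT than in BM (21.2% of all genes). Their median difference was -0.16 in log2(CPM + 1), against -0.24 for all genes. In PB, 1 was lower than in BM (15.9% of all genes), with a median of -0.47. Between PB and AT, 1 was higher (11.1% of all genes) and 1 lower in PB (7.65% of all genes), with a median of -0.10. *HIST1H1C*, a linker histone, was at 9.15, 33.8 and 18.2 CPM, and differed between cells S-high only and cells that were neither by -0.19 in AT, -0.75 in BM and -0.08 in PB. *HIST1H1D*, also a linker histone, was at 29.5, 26.2 and 17.5 CPM and differed by 0.20, 0.51 and 0.36. *HIST1H1E* differed by 0.29, 0.08 and 0.08, and *HIST3H2BB* by -0.36, -0.33 and -0.17.

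In BM, 330 cells had a UMI of *IGFBP5*, a binding protein of insulin-like growth factors chosen after its values were seen. Their S-phase sum was 2448 CPM (2393 to 2503), and 77.0% (72.0 to 81.4%) of them were S-high, against 973 CPM and 26.7% in the other 5250 cells. Their median depth was 9543.5 UMIs against 6769 UMIs. In AT, where 2968 cells had an *IGFBP5* UMI, the sum was 592 CPM with and 690 CPM without.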
